A study of Mus musculus with 8 samples.

Results

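Gene expression in the colonic epithelium was compared between the 2 changes of light, lights-off at ZT12 and lights-on at ZT0. ZT12 opens the active phase of mice and ZT0 their resting phase. The comparison took the 2 ZT12 libraries against the 2 ZT0 libraries, 4 of the 8 libraries of the series, for all genes with a mean of at least 10 normalised read counts over the 8 libraries, which were 13503 of 14247. A normalised read count is the number of reads of a gene divided by the size factor of its library. The mice were wild type (C57BL/6), 2 to 4 months old and kept in 12 h of light and 12 h of darkness, without any treatment, and the cells were crypts scraped from the colon after EDTA. ZT6 and ZT18, with 2 libraries each from mice of the same kind, entered the estimate of the spread between replicates. The study's text gives more mice per time point than the table holds libraries. The libraries carry replicate numbers and nothing in the labels says whether each came from 1 mouse, so that a p-value measures the spread between these samples, which may be technical.

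In mammalian cells the clock runs as a loop in which BMAL1 and CLOCK bind the DNA sequence called the E-box and switch on the genes of the period, cryptochrome and REV-ERB proteins. Period and cryptochrome proteins shut BMAL1 and CLOCK off again, and REV-ERB proteins repress the gene of BMAL1, Arntl, through the sequence bound by the ROR receptors. DBP, TEF and NFIL3 compete for another sequence, the D-box, DBP and TEF as activators and NFIL3 as a repressor. Colonic crypts renew continuously from stem cells at their base, and the colonocytes above them absorb sodium, chloride and water.

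The 4 libraries had 17522075 and 19695953 reads at ZT0 and 17303464 and 14722342 reads at ZT12. All 17 epithelial markers were detected in each of them, with a summed level of 413724 and 383125 normalised counts at ZT0 and 361893 and 435006 at ZT12. Libraries ZT12 replicate 1 and ZT0 replicate 2 stood apart by transcripts of other cells. The 12 smooth muscle markers tested, of 15 listed, summed to 6668 in ZT12 replicate 1, 2022 in ZT12 replicate 2 and 1107 and 1466 at ZT0. Myh11, the smooth muscle myosin, had 6.95 and 13.1 normalised counts at ZT0 and 1662 and 80.7 at ZT12. Acta2, Actg2, Cnn1, Des, Myl9 and Pgm5 had 0 reads in ZT0 replicate 1. Most of the muscle level at ZT12 therefore lay in 1 library, while ZT12 replicate 2 also exceeded both ZT0 libraries for Myh11. The 12 fibroblast markers, of 16 listed, summed to 7174 and 4657 at ZT0 and 8928 and 5654 at ZT12. Col3a1, a fibrillar collagen, had 0 and 199 at ZT0 and 988 and 18.4 at ZT12. At its median the fibroblast list deviated from the mean of the 8 libraries by -1.65 and 2.89 at ZT0 and 4.84 and 0.53 at ZT12. The sum and the median thus ranked the ZT0 libraries in opposite order. The 15 B and plasma cell markers, of 16 listed, summed to 222 and 4942 at ZT0 and 1752 and 212 at ZT12, and Ighm, the heavy chain of IgM, had 4.97 and 918 at ZT0 against 134 and 28.8 at ZT12. Of T cell markers, 8 of 15 listed were tested, summing to 77.5 and 250 at ZT0 against 220 and 265 at ZT12. Of macrophage, dendritic cell and neutrophil markers, 11 of 19 were tested, summing to 5412 and 4499 against 3242 and 5109. The median deviation of this last list was -1.05 and 1.47 at ZT0 and 1.78 and 0.38 at ZT12, in another order than the sums. In ZT0 replicate 1, Cd3g, Cd2, Gzma and Gzmb of the T cells, Lyz2, C1qb, C1qc and Itgax of the myeloid cells, Cd79b, Ighd and 5 further B cell markers, and Col3a1, Col6a1, Col6a2, Dpt and Sparc of the fibroblasts were also at 0. A count of 0 allows up to 3 reads, which are 2.80 to 3.46 normalised counts in these libraries, for counting error only. In bulk RNA fewer cells of a type and less RNA per cell cannot be told apart. Results below are therefore also given without ZT12 replicate 1, or without it and ZT0 replicate 2.

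**Figure D1:**
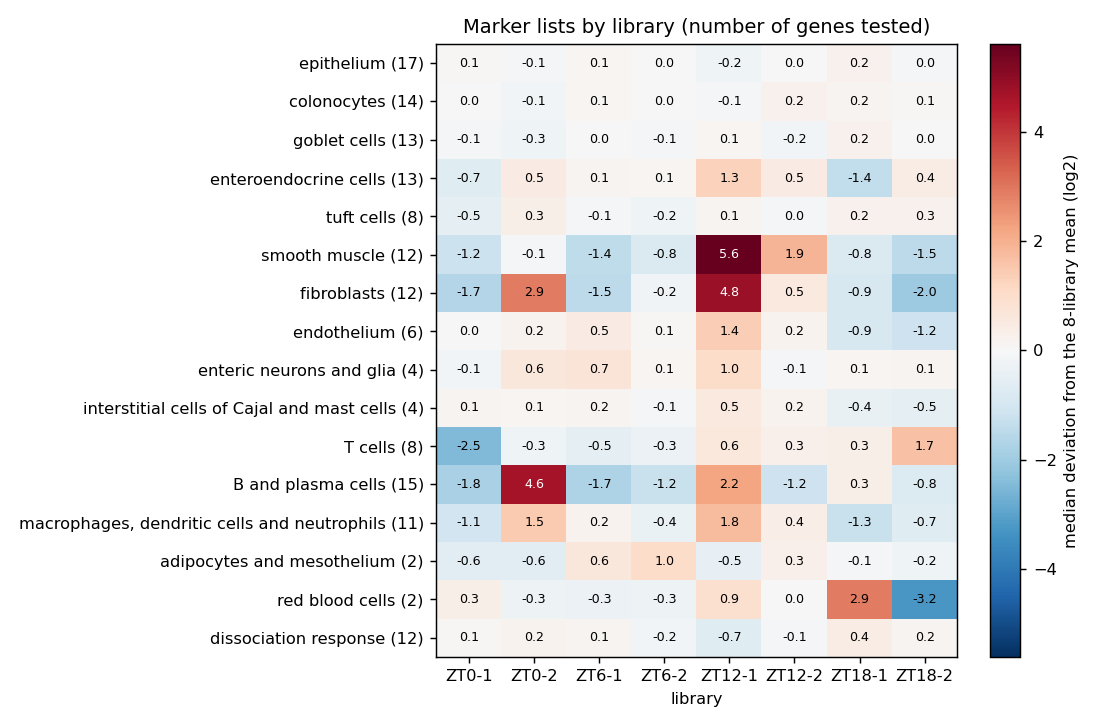
Median deviation of each marker list from the mean of the 8 libraries (log2, colour and number) in each library, with the number of genes tested in parentheses. Smooth muscle markers stood at 5.57 and fibroblast markers at 4.84 in replicate 1 of ZT12, those of B and plasma cells at 4.64 in replicate 2 of ZT0, and epithelial markers between -0.23 and 0.24.

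Genes of the clock made up 8 of the 9 calls. After adjustment over all 13503 genes, limma called 9 genes higher at ZT12, 0.0667% of those tested, and none lower (0.0%). Of the 9, 8 belong to the list of 23 core clock genes and regulators, and the remaining one is 0610005C13Rik, an antisense transcript whose exons overlap Bcat2 on the other strand. At an unadjusted p under 0.05, 676 genes were higher (5.01%) and 669 lower (4.95%). Fold changes are differences of log2(normalised read count + 1), which understates those of low genes. The smallest adjusted p among lower genes was 0.0557. DESeq2 on the recovered reads, with another model of the spread, called 73 genes higher (0.541%) and 58 lower (0.43%), all 9 among them, whereas the quasi-likelihood test of edgeR called 5 higher and none lower, with 631 lower at an unadjusted p under 0.05.

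The clock genes called at ZT12 differ in the short sequences before their start sites, and the stretches that hold an E-box or a D-box are given first. Promoter windows of 300 bases (250 before and 50 after the start, RefSeq, GRCm38.p6) were found for 10511 genes tested, including all 9 called genes. The E-box was searched as CACGTG, which reads the same on both strands, and the D-box as TTATGTAA or TTACGTAA on either strand. An E-box lay in a window of 4 of the 9 called genes (Ciart, Cipc, Per1 and Tef) and of 1206 of the 10511 genes (11.5%). A D-box lay in a window of Per3 alone among the 9 and of 90 genes in all (0.856%). In the stretches below, written 5′ to 3′ on the strand of the gene, capitals mark the E-boxes, in Ciart 3 of them, and in Per3 the D-boxes. Tef is shown for each of 2 starts.
Ciart, chr3:95882256-95882355, minus strand: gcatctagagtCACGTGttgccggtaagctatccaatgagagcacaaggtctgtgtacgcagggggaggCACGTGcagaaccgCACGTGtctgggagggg
Tef, chr15:81802499-81802598, plus strand: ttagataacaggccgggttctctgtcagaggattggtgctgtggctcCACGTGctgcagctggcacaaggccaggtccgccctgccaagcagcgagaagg
Tef, chr15:81811229-81811328, plus strand: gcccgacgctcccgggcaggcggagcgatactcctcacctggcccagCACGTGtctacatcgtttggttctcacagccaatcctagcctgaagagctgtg
Per1, chr11:69098736-69098835, plus strand: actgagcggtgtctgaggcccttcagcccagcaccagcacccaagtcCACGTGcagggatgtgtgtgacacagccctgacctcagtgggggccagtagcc
Cipc, chr12:86947243-86947342, plus strand: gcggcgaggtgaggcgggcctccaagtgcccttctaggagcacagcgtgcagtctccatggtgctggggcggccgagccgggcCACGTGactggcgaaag
Per3, chr4:151044794-151044893, minus strand: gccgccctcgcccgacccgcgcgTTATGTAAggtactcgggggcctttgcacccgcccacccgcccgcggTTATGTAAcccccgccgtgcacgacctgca

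A match is a description of these letters and not a measured binding site, and Dbp, Nr1d1 and Nr1d2 had neither motif in the windows searched.

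Of the genes whose proteins bind the D-box, the activators rose. Dbp (ENSMUSG00000059824, chromosome 7, 45705088 to 45710203, plus strand, as are all positions here in GRCm38) had 26.8 and 21.5 normalised counts in the ZT0 libraries and 1593 and 1113 in the ZT12 libraries, means of 24.1 ± 3.79 and 1353 ± 339 (SD, n = 2 each). Its log2 fold change was 5.74, SE 0.30, the largest of the 9, with a limma adjusted p of 0.000137. Both ZT12 libraries lay far above both ZT0 libraries, and also above the 482 and 361 of ZT6 and the 89.7 and 88.5 of ZT18. Tef (ENSMUSG00000022389, chromosome 15, 81802421 to 81826863, plus strand) had 237 and 389.9 at ZT0 and 4001 and 3239 at ZT12 (log2 fold change 3.56, SE 0.28, limma adjusted p 0.00186), and was likewise highest at ZT12 among the 4 times. The repressor of the same sequence, Nfil3 (ENSMUSG00000056749, chromosome 13, 52967209 to 52981073, minus strand), stood the other way, with 156 and 180 at ZT0 and 17.8 and 26.5 at ZT12. Its log2 fold change of -2.89 (SE 0.41) missed the threshold in limma (adjusted p 0.0596) and passed it in DESeq2. Without overlap between the groups, the activators were high and the repressor low at lights-off, and the reverse held at lights-on. Exons of Dbp and Tef overlap those of Sphk2 and Gm17597 on the opposite strand, and whether the counting used strand is not stated, so reads of the overlaps cannot be told apart.

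Among the repressors of BMAL1 and CLOCK, the period genes were higher at ZT12. Per1 (ENSMUSG00000020893, chromosome 11, 69095217 to 69109960, plus strand) had 392 and 265 normalised counts at ZT0 and 1570.2 and 1170.2 at ZT12, and Per3 (ENSMUSG00000028957, chromosome 4, 151003652 to 151044665, minus strand) 238 and 127 at ZT0 against 1784 and 1341 at ZT12. They rose by 2.07 (SE 0.25, limma adjusted p 0.0269) and 3.14 (SE 0.29, limma adjusted p 0.00557) on the log2 scale. Per2, with 487 and 716 at ZT0 and 2068 and 1692 at ZT12, had a log2 fold change of 1.66 and an adjusted p of 0.0717, and passed in DESeq2. For Per1 and Per3 every ZT12 library exceeded every other library, whereas Per2 at ZT18 (1599 and 1923) overlapped ZT12. The cryptochromes stood in opposite directions: Cry1 had 935 and 863 at ZT0 and 419 and 481 at ZT12 (log2 fold change -1.0, adjusted p 0.183, called by DESeq2), and Cry2 462 and 658 at ZT0 against 936 and 925 at ZT12 (0.75, adjusted p 0.381). The promoter window of Cry1, which was lower at ZT12, also held an E-box, printed here in capitals to set it beside those of the genes that rose.
Cry1, chr10:85185062-85185161, minus strand: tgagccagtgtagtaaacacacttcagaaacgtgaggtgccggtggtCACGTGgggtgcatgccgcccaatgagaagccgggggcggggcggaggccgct

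Ciart and Cipc encode further proteins that bind and repress the pair of BMAL1 and CLOCK. Ciart (ENSMUSG00000038550, chromosome 3, 95878503 to 95882251, minus strand) rose from 14.9 and 18.7 normalised counts at ZT0 to 441 and 407 at ZT12 (log2 fold change 4.59, SE 0.43, limma adjusted p 0.00557), the second largest change among the calls after Dbp. Cipc (ENSMUSG00000034157, chromosome 12, 86947043 to 86965362, plus strand), with the most reads of the 9, rose from 1750.1 and 1952 to 5318 and 4372 (log2 fold change 1.38, SE 0.17, limma adjusted p 0.0344). The call of Cipc was lost without any one of the 4 libraries (limma adjusted p 0.122 to 0.186), in edgeR (adjusted p 0.0598), with the replicate block, after quantile normalisation or rescaling to reads outside the mitochondrial genome, without the trend and in the 4 libraries alone. The genes of the REV-ERB proteins rose as well. Nr1d2 (ENSMUSG00000021775, chromosome 14, 18204054 to 18239127, minus strand) had 283 and 226 at ZT0 and 2630.1 and 1874 at ZT12 (log2 fold change 3.13, SE 0.21, limma adjusted p 0.00083). The values of Nr1d1 (ENSMUSG00000020889, chromosome 11, 98767932 to 98775333, minus strand) were 280.1 and 137 at ZT0 against 1685 and 1306 at ZT12 (log2 fold change 2.91, SE 0.34, limma adjusted p 0.0269), and its exons overlap those of Thra on the opposite strand, as do those of Arntl, Cry2, Ube2c, Jun and Rbm3 with other genes. Nr1d1 was already at 1829.5 and 1352 at ZT6, where it overlapped ZT12, and overlapped ZT0 at ZT18 (197 and 142), whereas Nr1d2 was highest at ZT12.

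Of the activators of the loop, Arntl and Npas2 were lower at ZT12. Arntl, the gene of BMAL1, had 1597 and 1038 normalised counts at ZT0 and 301 and 436 at ZT12, without overlap. Npas2, which encodes a relative of CLOCK that also pairs with BMAL1, had 998 and 783 at ZT0 against 204 and 409 at ZT12. Their log2 fold changes of -1.83 (SE 0.27) and -1.61 (SE 0.33) had limma adjusted p-values of 0.0717 and 0.258, and both were called by DESeq2. Clock itself had 2315 and 1401 at ZT0 and 1667 and 1785 at ZT12, and the groups overlapped. The sequence bound by the ROR and REV-ERB receptors was searched as TAGGTCA or TGGGTCA on either strand, and lay in the windows of Arntl and Nfil3 and of no other clock gene of the 18 with a window, against 666 of 10511 genes (6.34%). In Nfil3 it lies just before the start site, read on the opposite strand and in capitals below. No motif searched contains another.
Nfil3, chr13:52981040-52981139, minus strand: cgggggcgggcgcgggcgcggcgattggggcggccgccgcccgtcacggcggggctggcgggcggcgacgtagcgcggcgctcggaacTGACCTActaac

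In the whole list of 23 clock genes tested, of 26 listed, 12 were higher and 4 lower at an unadjusted p under 0.05. That compares with 5.01% and 4.95% of all genes. Their libraries did not overlap for 13 higher and 5 lower genes, against 20.7% and 20.3% of all genes. Usp2, a deubiquitinase under clock control, had 366 and 644 at ZT0 against 1516 and 914 at ZT12 (log2 fold change 1.28), and Bhlhe40, a further repressor of E-box genes, 2106 and 1921 at ZT0 against 3077 and 2992 at ZT12 (0.59). Usp2 was called by DESeq2 and Bhlhe40 by neither test. The counts of the list did not rest on the library rich in muscle transcripts. When ZT12 replicate 1 was left out, 12 were higher and 4 lower at an unadjusted p under 0.05, where the share over all genes was 2.2% and 2.31%. The log2 fold change of Dbp was then 5.48, of Tef 3.41, of Ciart 4.53 and of Arntl -1.56. With 1 ZT12 library left, Dbp, Tef and Nr1d2 remained called and the other 6 did not (Per1 1.86, adjusted p 0.185). Without both that library and ZT0 replicate 2 none of the 9 passed, with log2 fold changes from 1.32 for Cipc to 5.32 for Dbp.

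**Figure D2:**
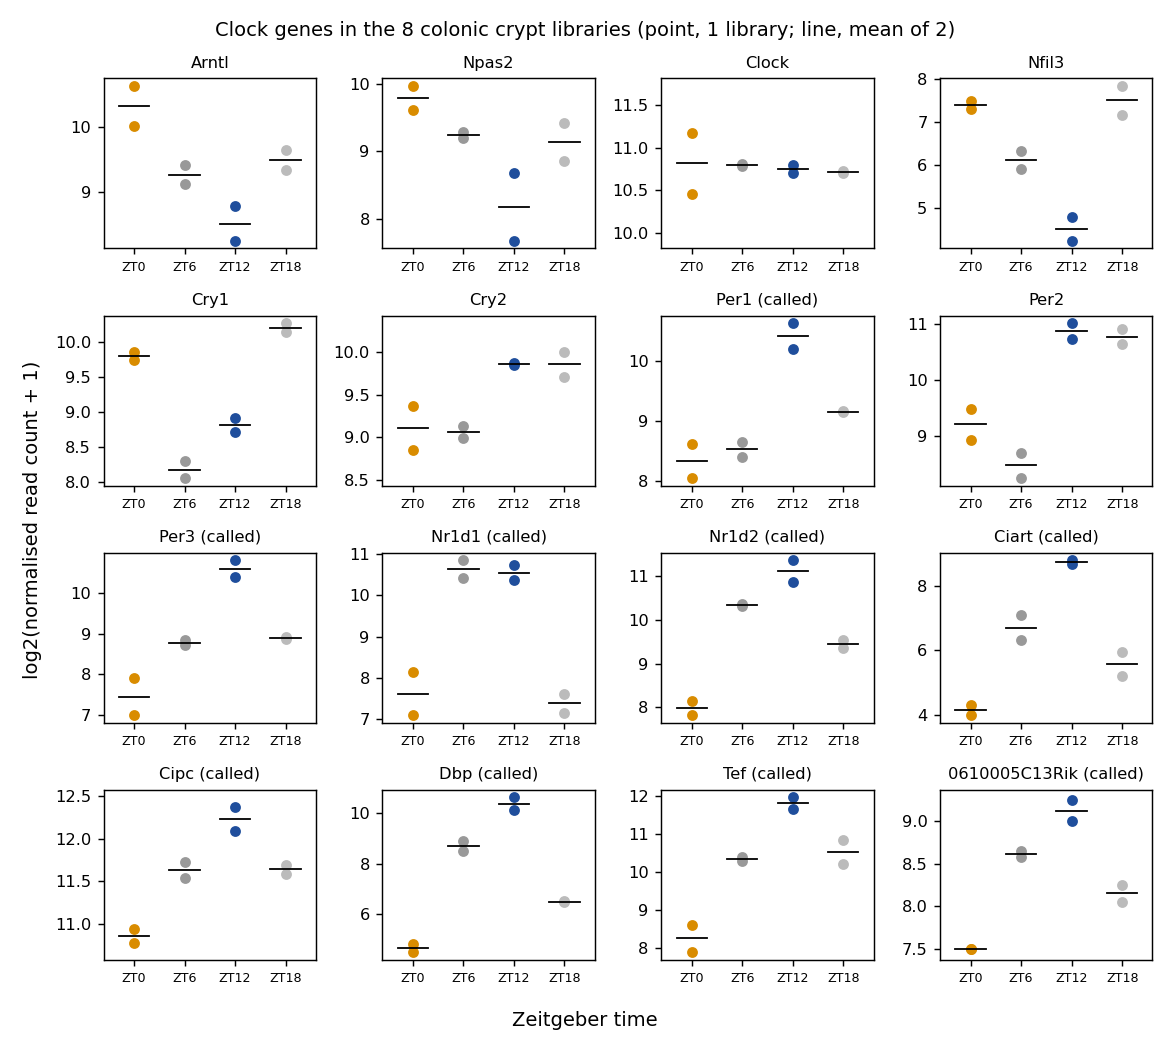
log2(normalised read count + 1) of 16 genes, 15 of the clock list and 0610005C13Rik, in each library (points) with the mean of the 2 libraries (line) against zeitgeber time, ZT0 in orange and ZT12 in blue. Dbp rises by 5.74 from ZT0 to ZT12, Arntl, Npas2, Nfil3 and Cry1 stand lower at ZT12 than at ZT0, and the difference of Clock is -0.06.

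Output genes of the clock outside the loop gave fewer differences than the core list. Of 25 tested, of 30 listed, 4 were higher (16.0%) and 2 lower at an unadjusted p under 0.05, beside 5.01% higher and 4.95% lower in all genes, and none was called by limma, with a median log2 fold change of 0.12 beside 0.01 over all genes. Without ZT12 replicate 1 the median was 0.11, and without ZT0 replicate 2 as well it was 0.06. Coq10b, which serves the carrier of electrons coenzyme Q, had 637 and 819 normalised counts at ZT0 and 1335 and 1377 at ZT12 (log2 fold change 0.91). Mthfd1l, of mitochondrial folate metabolism, had 226 and 177 at ZT0 against 419 and 317 at ZT12 (0.86). Both were without overlap and Coq10b was called by DESeq2. The nuclear receptor Ppara had 61.6 and 150.2 at ZT0 against 709 and 173 at ZT12, so that its log2 fold change of 1.85 was 0.84 without ZT12 replicate 1. Abcb1a, a drug exporter, likewise had 0.85, and 0.40 without it.

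0610005C13Rik (ENSMUSG00000109644, chromosome 7, 45567794 to 45575327, minus strand), the called gene outside the clock list, had 179.8 and 180 normalised counts at ZT0 and 607 and 513 at ZT12, with 400.4 and 383 at ZT6 and 265 and 305 at ZT18. Its libraries at ZT12 were the 2 highest and at ZT0 the 2 lowest of the 8 (log2 fold change 1.63, SE 0.21, limma adjusted p 0.0451). The call was lost without any one of the 4 libraries (limma adjusted p 0.186 to 0.283), in edgeR (adjusted p 0.0531), with the replicate block (0.103 in limma), after rescaling to reads outside the mitochondrial genome, with a pseudocount of 10, without the trend and in the 4 libraries alone. Its reads cannot be told apart from those of Bcat2 where their exons overlap.

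Genes of cell division were lower at ZT12 than at ZT0 as a group, although limma called none of them. Of 25 genes of mitosis and the G2 phase, all tested, 17 were lower and 0 higher at an unadjusted p under 0.05, against 4.95% lower in all genes. Their median log2 fold change was -0.73 and 24 of 25 had a negative value. For 21 the ZT12 libraries lay wholly below the ZT0 libraries, against 20.3% of all genes. Aurkb, the kinase of the chromosomal passenger complex, had 452 and 468 normalised counts at ZT0 and 183 and 186 at ZT12 (log2 fold change -1.32, SE 0.24, adjusted p 0.176). Its partner in that complex, Birc5, had 391 and 419.7 at ZT0 against 131 and 248 at ZT12 (-1.16). The ZT0 libraries were the 2 highest of all 8 for both genes. Tpx2, which activates Aurora A on the spindle, had 618 and 536 at ZT0 against 226 and 295 at ZT12 (-1.15), and Ttk, the checkpoint kinase MPS1, 249 and 169.8 at ZT0 against 93.6 and 91.1 at ZT12 (-1.15). Mki67, the usual marker of proliferating cells, had 4158 and 4021 at ZT0 against 2628 and 2458 at ZT12 (-0.69), and Ube2c, which hands ubiquitin to the anaphase-promoting complex, 713 and 720.1 at ZT0 against 311 and 409 at ZT12 (-1.0). DESeq2 called Aurkb and Ube2c in the list, and outside it Cdca3, Cdca8, Cenpa and Racgap1, also of mitosis and cytokinesis, each lower. Cdca3 had 985 and 1015 at ZT0 against 350.2 and 466 at ZT12, and Cenpa, the histone of the centromere, 590 and 591 at ZT0 against 256 and 272 at ZT12. These 4 were chosen after their values were seen.

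Of the other 8 members, 4 lay lower without overlap and did not pass (Bub1, Top2a, Kif11 and Prc1), 3 overlapped (Plk1, Mad2l1 and Kif20a), and Wee1 stood above, with 483 and 277 at ZT0 against 579 and 533 at ZT12. Plk1 had 1659 and 2365 at ZT0 and 2059.9 and 1829 at ZT12. Wee1 encodes a kinase that holds cells back from mitosis and is a known target of the clock. The direction of the group stayed without the libraries that stood apart. Its median was -0.71 without ZT12 replicate 1, with 24 genes negative, and -0.84 without ZT0 replicate 2 as well, with 23. Leaving out ZT0 replicate 1 gave -0.60, with 24 genes negative. From the mean of the 8 libraries the list deviated, at its median, by 0.75 and 0.42 in the ZT0 libraries. The deviation was -0.19 and -0.08 for ZT12, 0.11 and -0.21 for ZT6 and -0.38 and -0.23 for ZT18. The ZT0 libraries were thus the highest of the 4 times, and ZT12 stood near ZT6 and ZT18. Genes of DNA replication were less apart, with a median of -0.29. Of 24 tested, 2 were lower (Gins2 and Rrm2) and none higher at an unadjusted p under 0.05, beside 4.95% and 5.01% of all genes. Gins2, a part of the replicative helicase, had 242 and 129 at ZT0 against 63.7 and 76.1 at ZT12, and Rrm2, of ribonucleotide reductase, 289 and 319.9 at ZT0 against 155 and 214 at ZT12, while Mcm2, of the same helicase, had 398 and 365 at ZT0 against 421 and 462 at ZT12.

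Promoters of mitotic genes are known for the element called CHR beside CCAAT boxes. The CHR was searched as TTTGAA or TTCGAA on either strand, and lay in a window of 14 of the 19 mitosis genes that had one and of 1761 of 10511 genes (16.8%). The CCAAT box, searched as CCAATC or CCAATG on either strand, lay in 14 of the 19 and in 3580 genes (34.1%). It was not particular to this list. Among genes with a window it lay in 13 of 14 of cholesterol synthesis and 13 of 18 of the clock. The glucocorticoid list had it in 12 of 18 and the immediate early list in 8 of 18. An E-box lay in 1 of the 19, Ttk. The stretches before the start sites of Cdk1, Ube2c and Cdc20 are shown because these 3 genes were lower at ZT12 and hold the CHR near the start, in capitals. Cdk1, the kinase that drives entry into mitosis, had 554 and 447 normalised counts at ZT0 and 266 and 309 at ZT12, and Cdc20, the activator of the anaphase-promoting complex, 546 and 478 at ZT0 against 305 and 312 at ZT12.
Cdk1, chr10:69352913-69353012, minus strand: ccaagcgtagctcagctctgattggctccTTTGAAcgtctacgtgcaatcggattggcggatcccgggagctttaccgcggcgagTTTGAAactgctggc
Ube2c, chr2:164769829-164769928, plus strand: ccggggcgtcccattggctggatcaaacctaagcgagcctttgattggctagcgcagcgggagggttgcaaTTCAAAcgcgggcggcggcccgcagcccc
Cdc20, chr4:118437344-118437443, minus strand: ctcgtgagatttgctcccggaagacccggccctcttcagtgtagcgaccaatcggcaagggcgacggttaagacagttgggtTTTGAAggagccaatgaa

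Genes of cholesterol synthesis were higher at ZT12, but most of the difference lay in the libraries that stood apart. Of 22 genes, 11 were higher and 0 lower at an unadjusted p under 0.05, against 5.01% higher in all genes, and limma and DESeq2 called none. The median log2 fold change was 0.60, with 21 of 22 above 0. Idi1, the isomerase of the isoprenoid units, had 525 and 356 normalised counts at ZT0 and 1034 and 639 at ZT12 (log2 fold change 0.91), Lss, lanosterol synthase, 586 and 669.7 at ZT0 against 1352 and 927 at ZT12 (0.84), and Cyp51, which demethylates lanosterol, 2590.4 and 1459.7 at ZT0 against 3938 and 2757 at ZT12 (0.76). In each of these, ZT12 replicate 1 was the highest of the 4 libraries, and in Idi1 and Cyp51 ZT0 replicate 2 was the lowest. Without ZT12 replicate 1 the median was 0.38, and without ZT0 replicate 2 as well it was 0.13. From the mean of the 8 libraries the cholesterol list deviated, at its median, by 0.44 in ZT12 replicate 1 and 0.43 in ZT6 replicate 2. The smooth muscle list stood at 5.57 and -0.82 in these libraries, and its part in the result was not tested.

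Genes of sodium transport leaned to the higher side at ZT12. All 19 genes of colonic sodium and chloride transport were tested: 6 were higher and 1 lower at an unadjusted p under 0.05 beside 5.01% higher and 4.95% lower in all genes, 18 of 19 had a positive log2 fold change and the median was 0.46. Without ZT12 replicate 1 the median was 0.39, without ZT0 replicate 2 it was 0.33 and without both 0.25. Slc9a3, the sodium and hydrogen exchanger NHE3 of the colonocyte surface, had 4386 and 4351 normalised counts at ZT0 and 12298 and 9862 at ZT12. Its log2 fold change of 1.33 (SE 0.19) had an adjusted p of 0.0594 in limma and passed in DESeq2. The ZT12 libraries of Slc9a3 were the 2 highest and the ZT0 libraries the 2 lowest of the 8, and the value without ZT12 replicate 1 was 1.17. Atp1b1, a subunit of the sodium pump, had 21679 and 16254 at ZT0 against 41093 and 26502 at ZT12 (0.81), and 0.50 without ZT12 replicate 1. The beta and gamma subunits of the epithelial sodium channel were higher, Scnn1b with 102 and 113 at ZT0 against 314 and 217 at ZT12 (1.27) and Scnn1g with 73.5 and 19.6 at ZT0 against 214 and 129 at ZT12 (2.10). The chloride exchanger Slc26a3, with 35214 and 21369 at ZT0 against 36649 and 42882 at ZT12, did not pass an unadjusted p of 0.05. The lower member was Kcnn4, a potassium channel, with 1661 and 1919 at ZT0 against 1247 and 1334 at ZT12.

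Nr3c2, the mineralocorticoid receptor, stood with them at 2162 and 1949 normalised counts at ZT0 and 3674 and 3221 at ZT12 (log2 fold change 0.74, SE 0.16), and was called by DESeq2. It belongs to the list of glucocorticoid receptor and targets. In that list 5 of 23 genes were higher and none lower at an unadjusted p under 0.05, beside 5.01% and 4.95% of all genes. Per1 was the only one called. Fkbp5, a chaperone of the receptor, had 1599 and 2526 at ZT0 against 3825 and 3063 at ZT12 (0.77), Klf9 1315 and 917 at ZT0 against 1980.3 and 1565 at ZT12 (0.68), and Tat, tyrosine aminotransferase, 698 and 580.2 at ZT0 against 927 and 877 at ZT12 (0.50). The classical target Tsc22d3 overlapped, with 1467 and 958 at ZT0 against 918 and 1491 at ZT12.

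**Figure D3:**
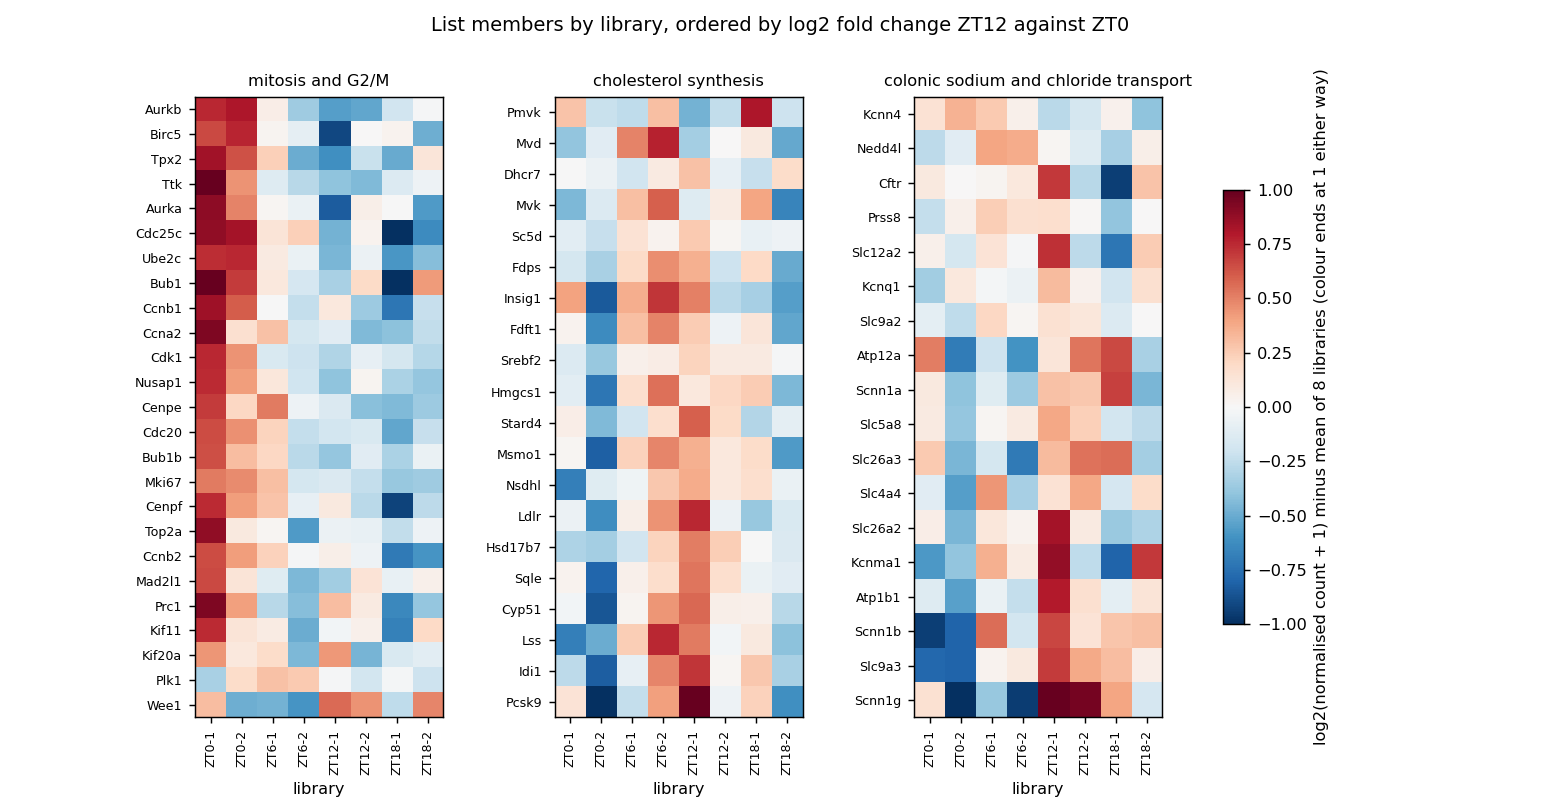
Most members of 3 gene lists (rows, ordered by log2 fold change) in the 8 libraries (columns), coloured by log2(normalised read count + 1) minus the mean of the 8 libraries, with colours ending 1 above and 1 below it. The lists are the mitosis, cholesterol and sodium transport genes. Most mitosis genes are red in both ZT0 libraries and pale or blue elsewhere, whereas cholesterol genes are reddest in ZT12 replicate 1 and ZT6 replicate 2 and bluest in ZT0 replicate 2.

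Carriers of nutrients had higher and lower members. Of 16 carriers of sugars, peptides and amino acids, 4 were higher and 1 lower at an unadjusted p under 0.05, beside 5.01% higher and 4.95% lower in all genes. The median of 0.51 was 0.20 without ZT12 replicate 1, 0.18 without ZT0 replicate 1 and 0.17 without ZT12 replicate 1 and ZT0 replicate 2. Slc2a5, the fructose carrier GLUT5, had 8.94 and 33.6 normalised counts at ZT0 and 155 and 105 at ZT12 (log2 fold change 2.80), and Slc5a1, the sodium and glucose carrier, 3473 and 2698 at ZT0 against 6133 and 4803 at ZT12 (0.83). Slc6a14, for neutral and basic amino acids, had 10492 and 9365 at ZT0 against 22539.7 and 16197 at ZT12 (0.95). DESeq2 called these 3, and each kept its direction without ZT12 replicate 1 (2.51, 0.65 and 0.71). Slc7a8, for large neutral amino acids, had 69.5 and 25.2 at ZT0 against 158 and 107 at ZT12 (1.61). Slc16a1, the carrier of butyrate and other monocarboxylates, was lower, with 8917 and 7944 at ZT0 against 6179 and 5743 at ZT12 (-0.50). Outside the lists, the peptide carrier Slc15a2 had 2.98 and 7.46 at ZT0 and 149.8 and 64.6 at ZT12 (4.10, adjusted p 0.141), and was at 262 and 112 at ZT6 and at 149 and 452 at ZT18, so that ZT0 was the low time. The sulfate carrier Slc13a1, with 42.7 and 228 at ZT0 against 1582 and 331 at ZT12, varied as widely within ZT18 (167 and 1599.7).

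Among 11 water channels and carbonic anhydrases, Car2, a cytosolic carbonic anhydrase, had 12297 and 13349 at ZT0 and 20788 and 27441 at ZT12 (log2 fold change 0.90), and Aqp4, a water channel, 5994 and 5144 at ZT0 against 7769 and 8049.7 at ZT12 (0.51). Both were without overlap and had an unadjusted p under 0.05, beside 5.01% higher in all genes. The remaining 9 had an unadjusted p above 0.05. The phosphate carrier Slc34a2 was lower at ZT12, with 2810 and 1693 at ZT0 and 141 and 515 at ZT12 (-3.01, limma adjusted p 0.144), and was called by DESeq2. Also lower at ZT12 and called by DESeq2, but chosen after their values were seen, were Cldn8 (3307 and 1607 at ZT0 against 717 and 796 at ZT12) and Cldn4 (1548 and 1306 at ZT0 against 702 and 912 at ZT12), proteins of tight junctions, the magnesium channel Trpm6 (7367 and 3699 at ZT0 against 1611 and 2683 at ZT12) and Ffar2 (689 and 1406 at ZT0 against 255 and 451 at ZT12), a receptor of short-chain fatty acids. Higher and chosen in the same way were Vipr1, a receptor of vasoactive intestinal peptide (4633 and 4448 at ZT0 against 7624 and 7697 at ZT12), Hpgd, which breaks down prostaglandins (3008 and 2649.9 at ZT0 against 5883 and 4898 at ZT12), and Alpi, an intestinal alkaline phosphatase (253 and 190.3 at ZT0 against 510.3 and 768 at ZT12).

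Mitochondrially encoded transcripts took a smaller share at ZT12. They took 12.2% and 19.8% of the normalised counts at ZT0 and 6.68% and 7.85% at ZT12, without overlap. Of 12 such genes, 10 did not overlap and were lower, against 20.3% of all genes, and 3 of the 10 had an unadjusted p under 0.05, against 4.95%. Limma called none. DESeq2 called mt-Co1 and mt-Co2. The median was -1.08, -0.90 without ZT12 replicate 1, -0.72 without ZT0 replicate 2 and -0.58 without both. mt-Co1, a subunit of complex IV, had 1269500 and 2285875 at ZT0 and 627499.9 and 749169.8 at ZT12 (log2 fold change -1.31), and mt-Cytb, of complex III, 301491 and 444474 at ZT0 against 154217 and 188097 at ZT12 (-1.10). The 3 genes that passed limma's unadjusted threshold were mt-Co2 (198 and 287 at ZT0 against 54.3 and 49.6 at ZT12), mt-Co3 (169.8 and 249 at ZT0 against 75.8 and 30.0 at ZT12) and mt-Atp6 (67.5 and 152 at ZT0 against 43.1 and 40.4 at ZT12). Their read counts were far below that of mt-Co1, and near-identical copies of the mitochondrial genome in the nucleus can share their reads, so that they are uncertain. The share at ZT6 was 19.2% and 19.4%, and the ZT18 libraries had 22.2% and 9.80%, as far apart as the 2 light changes.

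The median of the immediate early genes depended on 1 library. Of 21 tested, 6 were lower and 1 higher at an unadjusted p under 0.05, with a median of -0.36. In all genes 4.95% were lower and 5.01% higher. Egr1 had 367 and 423 normalised counts at ZT0 and 173 and 197 at ZT12 (log2 fold change -1.09), Ier5 1378 and 1361 at ZT0 against 544 and 752 at ZT12 (-1.10) and Jun 3100 and 2718 at ZT0 against 1463 and 1936 at ZT12 (-0.79), all 3 called by DESeq2. Atf3 had 1404 and 1664 at ZT0 against 597 and 1241 at ZT12 (-0.83, and -0.30 without ZT12 replicate 1). Fos, the best known of them, overlapped (3432 and 3804 at ZT0 against 2164 and 3681 at ZT12). Without ZT12 replicate 1 the median was 0.03, while Egr1, Ier5 and Jun still had -0.99, -0.86 and -0.58. The list of genes induced by tissue dissociation, which holds several of them, deviated by -0.66 in ZT12 replicate 1 and -0.06 in ZT12 replicate 2, and its part in the result was not tested. The cyclic AMP response element, searched as TGACGTCA (a palindrome), lay in windows of 3 of the 18 genes with one, Btg2, Dusp1 and Maff, against 3.49% of all genes.

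Genes of apoptosis, which the study follows, gave few differences. Of 32 pro-apoptotic genes, 3 were lower (9.38%) and none higher at an unadjusted p under 0.05, beside 4.95% and 5.01% of all genes. The median log2 fold change was -0.05. Bok had 737 and 513 at ZT0 and 179.8 and 252 at ZT12 (-1.52, adjusted p 0.239), and was called by DESeq2. Bax, which permeabilises mitochondria, had 1169 and 1396 at ZT0 against 614 and 1002 at ZT12 (-0.70), and Ddit3, of the stress response, 301 and 387 at ZT0 against 116 and 250.2 at ZT12 (-1.0). Without ZT12 replicate 1 Bok stayed at -1.28 while Bax and Ddit3 had -0.35 and -0.45. Trp53, with 534 and 643 at ZT0 against 500 and 491 at ZT12, and Bak1, with 1536 and 1746 at ZT0 against 1374 and 2038 at ZT12, did not pass. Among 11 anti-apoptotic genes, Birc5, described with mitosis, was lower, and Bcl2l2 was higher, with 1078 and 923 at ZT0 against 1342 and 1407 at ZT12 (0.46).

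Of 22 heat shock and cold-inducible genes, 19 had a negative log2 fold change and 3 were lower at an unadjusted p under 0.05, against 4.95% in all genes, Hsph1 (675 and 1081 at ZT0 against 449 and 579 at ZT12), Hsp90aa1 (4513 and 3601 at ZT0 against 2543 and 3213 at ZT12) and Stip1 (1139 and 1277 at ZT0 against 896 and 932 at ZT12), chaperones or their helpers. Rbm3, an RNA-binding protein induced by cold, was the one higher, with 956 and 1272 at ZT0 and 1755 and 1577 at ZT12 (0.59). Cirbp, also induced by cold, had 609 and 538 at ZT0 against 462 and 483 at ZT12. The median of -0.20 was -0.18 without ZT12 replicate 1, -0.13 without ZT0 replicate 2 and -0.04 without both. In that last fit 11 values were positive and 11 negative. Of 27 interferon-stimulated genes, 3 were higher, against 5.01% in all genes, and none lower, among them Ddx60 (569 and 443 at ZT0 against 1028 and 1166 at ZT12) and Ifit2 (83.4 and 188 at ZT0 against 198 and 689 at ZT12). The interferon list stood higher in ZT12 replicate 2 than in replicate 1, at 0.11 and -0.73. Its median of 0.28 became 0.81 without ZT12 replicate 1 and -0.22 without ZT12 replicate 2. It was 0.02 without ZT0 replicate 1 and 0.52 without ZT0 replicate 2, so that its sign depended on 1 library.

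The 9 genes of MHC class II, which present antigen, showed the weight of single libraries. None passed and none was free of overlap, and Cd74, the invariant chain, had 184 and 3329.9 normalised counts at ZT0 and 677 and 1123 at ZT12. Their median of 0.01 turned to -1.58 without ZT0 replicate 1 and 1.56 without ZT0 replicate 2, and the B cell list of ZT0 replicate 2 moved with it. Further lists had 1 to 2 genes higher and 0 to 4 lower at an unadjusted p under 0.05, beside 5.01% higher and 4.95% lower in all genes. The 4 lower genes were those of the unfolded protein response, 16.0% of its list, whose median was -0.09 without ZT12 replicate 1. The lists were the antimicrobial proteins (19 genes, median 0.33), fatty acid synthesis (15, 0.28), fatty acid oxidation and ketone synthesis (23, 0.25), the unfolded protein response (25, -0.11), xenobiotic metabolism (27, 0.17), autophagy and lysosome (22, -0.10) and Wnt targets with stem cell genes (19, 0.14). Leaving out 1 library turned the sign of 6 of these 7 medians. The antimicrobial list went to -0.13 and the unfolded protein response to 0.02 without ZT12 replicate 2, fatty acid synthesis to -0.03 and the Wnt list to -0.07 without ZT12 replicate 1, and fatty acid oxidation to -0.07 and xenobiotic metabolism to -0.16 without ZT0 replicate 1. In the Wnt list DESeq2 called Rnf43, a ubiquitin ligase that removes Wnt receptors (518 and 549 at ZT0 against 977 and 853 at ZT12), while Lgr5, the stem cell marker, had 90.4 and 59.7 at ZT0 against 216 and 95.7 at ZT12. Nos2, inducible nitric oxide synthase, was the antimicrobial gene that was higher (14.9 and 11.2 at ZT0 against 64.6 and 42.7 at ZT12).

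**Figure D4:**
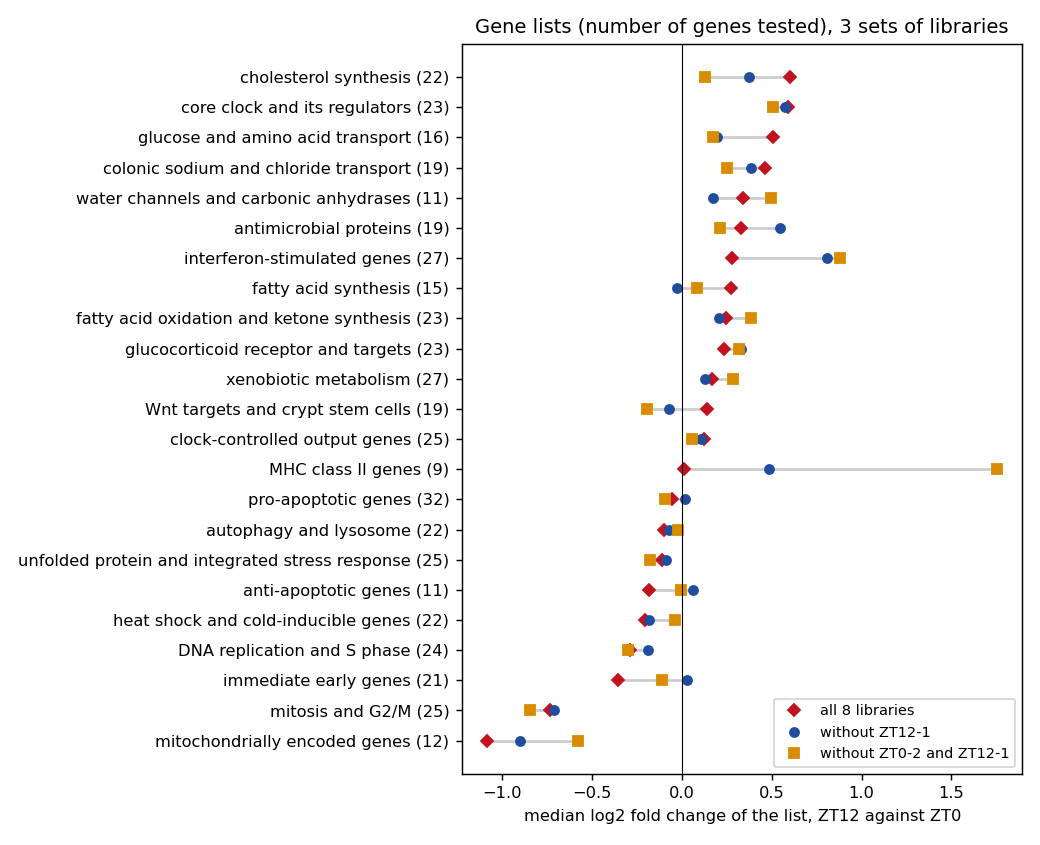
Median log2 fold change, ZT12 against ZT0, of 23 gene lists (number of genes tested in parentheses) in all 8 libraries (red), without ZT12 replicate 1 (blue) and without that library and ZT0 replicate 2 (orange). The mitosis list stays between -0.84 and -0.71 and the clock list between 0.51 and 0.59, whereas cholesterol synthesis runs from 0.60 to 0.13 and MHC class II from 0.01 to 1.75.

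The median log2 fold change over marker lists of epithelial cells was -0.06 for the epithelium as a whole, 0.11 for colonocytes, 0.23 for goblet cells, 0.80 for enteroendocrine cells and 0.06 for tuft cells, with at most 1 gene of each list at an unadjusted p under 0.05. Without ZT0 replicate 1 the enteroendocrine median was 0.14. Smooth muscle had 4.70 and 6 of 12 genes higher, beside 5.01% of all genes, and a median of 2.79 when ZT12 replicate 1 was left out. Fibroblasts had 2.34 with none higher, 0.44 without that library and -0.11 without ZT0 replicate 1. Insl5, a peptide hormone of colonic enteroendocrine cells, was the enteroendocrine gene that passed (424 and 319 at ZT0 against 552 and 1081 at ZT12), and Retnlb, a goblet cell protein, stood at 897 and 35885 at ZT12, above the other 3 of the 4 libraries in replicate 2 alone. Of the remaining marker lists, 6 of 13 endothelial, 4 of 12 neuronal and glial, 4 of 10 interstitial and mast cell, 2 of 10 adipocyte and mesothelial and 2 of 6 red blood cell genes reached the minimum mean.

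Few of the large fold changes held with each library left out. A log2 fold change of at least 1 in size was seen in 742 genes higher and 511 lower, of which 162 and 207 had an unadjusted p under 0.05. Only 176 of the 742 and 129 of the 511 stayed past 1 when each of the 4 libraries was left out in turn. Genes at 4 or more times the level (value + 1) of every other of the 8 libraries numbered 39 in ZT12 replicate 1, 52 in ZT0 replicate 2, 17 in ZT12 replicate 2 and 1 in ZT0 replicate 1. In ZT12 replicate 1 they included 8 smooth muscle and 4 fibroblast markers. The 3 highest were Myh11, given above, Flna (225 and 298 at ZT0 against 1321 and 173 at ZT12), an actin crosslinker, and Col3a1. In ZT0 replicate 2 they included 11 B and plasma cell markers, and the highest was Ceacam2, a cell adhesion gene, at 21139.8 normalised counts against 139 in its partner, before Lyz2 (0 and 1048) and Ighm.

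ZT12 replicate 2 held high levels of 9530053A07Rik (4.68 and 5271 at ZT12), Eno1b (9.36 and 2236) and Tpm3-rs7 (28.1 and 2014), and of Pbsn (0 and 1299) and Tgm4 (15.9 and 715), the latter pair known as secreted by the prostate. Pbsn and Tgm4 were chosen after their values were seen. Eno1b and Tpm3-rs7 are close copies of other genes, and the counting could split reads among them. In ZT0 replicate 1 the gene was Gm47791 (126 and 26.1). None of the 9 called genes was among these, and 8 of the 131 genes called by DESeq2 were high in 1 library alone. Acta2, with 0 and 30.8 at ZT0 and 769 and 62.3 at ZT12, and Myh11 passed an unadjusted p of 0.05 without overlap, with log2 fold changes of 5.29 and 5.12 that became 3.49 and 2.95 without ZT12 replicate 1.

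**Figure D5:**
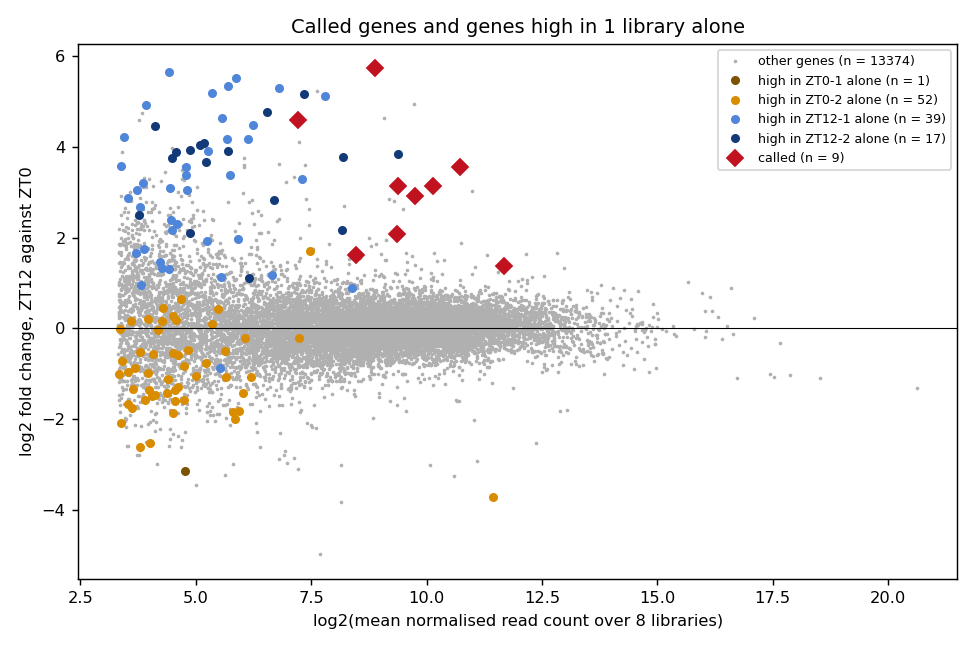
log2 fold change of ZT12 against ZT0 against the log2 of the mean normalised read count for 13503 genes, with the 9 called genes as red diamonds and genes high in 1 library alone coloured by that library. The called genes lie between 1.38 and 5.74, among genes of ZT12 replicates 1 and 2 that reach similar fold changes mostly at lower counts.

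Several of the 10 largest lower differences among genes with a mean of at least 100, an unadjusted p under 0.05 and no overlap were also set by 1 library. Gm49980 had 249 and 227 at ZT0 and 55.2 and 0 at ZT12, Zfp984, a zinc finger gene, 135 and 157 at ZT0 against 112 and 3.46 at ZT12, and 4930581F22Rik, whose exons overlap Dcps and St3gal4 on the other strand, 175 and 124 at ZT0 against 87.1 and 9.22 at ZT12. In all 3 the low value was that of ZT12 replicate 2. Both ZT12 libraries were low for Gm21887 (1446 and 2973 at ZT0 against 216 and 213 at ZT12), annotated on chromosome X, and Gm47283 (2532 and 3769 at ZT0 against 356 and 458 at ZT12), on chromosome Y. For C2cd4b they were at 25.3 and 34.6 against 148 and 298 at ZT0, and for Gm43813 at 12.2 and 61.1 against 164 and 261. 2310079G19Rik had 745 and 267 at ZT0 against 26.2 and 112 at ZT12. With Slc34a2 and Nfil3, given above, these made up the 10, and DESeq2 called Gm21887, Gm47283, C2cd4b, 2310079G19Rik, Slc34a2 and Nfil3.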

How the data were processed

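Colonic crypts of wild-type mice were profiled by bulk RNA-seq at ZT0, ZT6, ZT12 and ZT18, with 2 libraries each. Per the labels and the study's methods, reads were aligned with STAR to GRCm38. The annotation, the counting and its use of strand are not given in the sources used here. The authors deposited 1 table of normalised signal per gene and library, in which each value is a whole number of reads divided by a size factor (all values whole within a tolerance of 0.01 after the step was recovered). The table's further columns hold the authors' own comparison (fold changes and p-values) and were not used. Totals were 14722342 to 25159440 recovered reads per library, and 13503 of 14247 genes had a mean of at least 10.

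Values were tested as log2(value + 1) with limma 3.58.1 (R 4.3.3, empirical Bayes with a trend) in 1 fit of all 8 libraries, contrast ZT12 minus ZT0, two-sided, with Benjamini-Hochberg adjustment over 13503 genes and a threshold of 0.05. DESeq2 1.42.0 and edgeR 4.0.16 were run on the recovered reads. Other scalings, pseudocounts, filters, spread models, a replicate block and leaving out libraries were the further alternatives. The scripts were tested on simulated data. Positions and exon overlaps are from GENCODE release 21 of the mouse (14244 of 14247 identifiers matched), and promoters from RefSeq (GRCm38.p6).

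The comparison, the gene lists and the marker lists were chosen with earlier results of these data known. Named genes were all those called, the 10 largest differences each way among genes with a mean of at least 100, an unadjusted p under 0.05 and no overlap, up to 4 genes per list that passed the last 2 criteria (by size) or else its 2 most abundant, the 2 most abundant of each marker list, and the 3 highest genes of each library among those at least 4 times as high there as in every other. Genes named beyond this rule were chosen after their values were seen. A few list members that the rule takes are counted but not reported here by name.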

Additional observations from a re-analysis of the deposited data

How the results depend on the processing

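Of the 18 alternatives, other scalings, pseudocounts and filters called 7 to 10 genes. DESeq2 called 131 genes, edgeR 5, a fit without the trend 1 (Dbp), a fit of the 4 libraries alone 5, and leaving out 1 library 5 to 11, where a lone library was assumed to vary like the others. Without ZT12 replicate 1, 10 were called, 3 higher (Dbp, Nr1d2 and Tef) and 7 lower, against 9 higher with all libraries. Without ZT0 replicate 2, 10 were called and 5 of the 9 remained, and without ZT12 replicate 2, 5 were called and 3 of the 9 remained. Leaving out both ZT0 replicate 2 and ZT12 replicate 1, chosen after the data were seen, called 2, both lower (Nlrp1b and St3gal4). With the replicate number as a block 8 genes were called, 7 of the 9 among them, Cipc and 0610005C13Rik not. Same-numbered ZT0 and ZT12 libraries deviated in opposite directions (correlation -0.29), those of ZT0 and ZT18 together (0.22), and the numbers were not taken to pair the samples. A block with the ZT12 numbers crossed, also chosen after the data were seen, called 22.

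Of 129 genes named or listed, 4 turned in sign under an alternative. Cd74 had 0.15 with all libraries, -0.97 in DESeq2, -0.96 in edgeR, -1.93 without ZT0 replicate 1 and 2.60 without both doubted libraries, where Plk1 had 0.14 against -0.03 with all. With 1 library left out, Ctss from -0.18 to 0.58, Cd74 from -1.93 to 2.24, Clock from -0.42 to 0.30 and Plk1 from -0.29 to 0.23 ranged. The causes were not tested. Of 39 list medians, 22 turned in sign under at least 1 alternative. Under the 3 scalings the medians of the clock, mitosis, cholesterol, sodium and mitochondrial lists kept their sign. Depth limits genes near 3 reads, 2.41 to 3.70 normalised counts.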

Other observations

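DESeq2 called further genes outside the lists that limma did not, chosen here after their values were seen. Slc36a1, a carrier of small amino acids with protons, had 1904 and 1143 normalised counts at ZT0 and 5235 and 3861 at ZT12 (log2 fold change 1.61, limma adjusted p 0.239), and was also called with the replicate block. Homer2, a scaffold protein, had 323 and 314 at ZT0 against 769 and 1076 at ZT12 (1.51, limma adjusted p 0.101). Tppp3, a protein that binds tubulin, was lower at ZT12 (3216 and 1961 at ZT0 against 478 and 800.1 at ZT12). In these 3 genes the groups did not overlap. Without ZT12 replicate 1 their log2 fold changes were 1.39, 1.75 and -1.65.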
